A study of Danio rerio with 28 samples.

Results

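The genes described here are 7 immediate early genes of the zebrafish, ier2a, ier2b, fosab, junba, junbb, egr1 and atf3, chosen by symbol from the 32520 genes of the deposited count table. The choice applied no threshold to measured values, but it was made with earlier results of these data known. The samples are whole embryos, injected with s4UTP, a uridine nucleotide carrying sulfur that is built into RNA made after injection. The sources used here do not say whether the counts cover all RNA or the new RNA alone. The groups are wild type embryos and mir430-/- embryos, each at 256c, 1024c, Oblong and Sphere, successive stages around the time when the genome of the embryo is switched on. All embryos were dechorionated with Pronase and injected. The mir430-/- embryos, called mutant below, also received miR430 as a rescue, which the labels name for them only, so the effect of the deletion cannot be told apart from that of the injected miR430 or of the line. Iodoacetamide (IAA), which alkylates the sulfur, was used on 24 libraries in 8 groups of 3. For each stage there was also a wild type library made without IAA, 4 in all, which enter no comparison.

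Immediate early genes are transcribed within minutes of a signal, from promoters that need no newly made protein. In adult and cultured cells, growth factors, calcium and stress act on them through MAP kinases, which phosphorylate factors such as Elk1, Srf and Creb already present in the nucleus. Most of their products are transcription factors themselves: Fos and Jun proteins pair as AP-1, Atf3 is a related leucine zipper protein, and Egr1 is a zinc finger protein. Many of these genes are short and have few introns or none.

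The libraries with IAA held between 4960211 and 13803137 counts, of which nuclear genes took from 1.22 to 62.6%. At 256c the nuclear counts ran from 160889 to 204534 in wild type and from 258302 to 634140 in the mutant, so the depth behind a level was lowest there in wild type. The 3 libraries of a group are biological replicates by their labels, which do not name clutches. P-values measure only the spread among such replicates. In the main fit this is 1 spread per gene, taken within groups over all 8 groups together, also those not compared. The 54 mir430 genes of chromosome 4 took between 2.22 and 28.0% of nuclear counts in the 12 wild type libraries and at most 0.0228% in the 12 mutant ones. Levels are given in CPM, counts per 1000000 of the library total scaled by TMM, a factor per library that rests on the bulk of the genes and here ran from 0.233 to 3.57. Of the marker lists, enveloping layer and yolk syncytial layer genes had counts in every group. The 4 blood genes summed to 5.43 CPM in mutant replicate 3 at Sphere and 2.60 in mutant replicate 3 at Oblong. In any other library they summed to at most 0.557 CPM. Embryos were measured whole, so fewer expressing cells and less RNA per cell cannot be told apart.

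All 7 genes are annotated on GRCz11. The Fos gene fosab (ENSDARG00000031683) lies on chromosome 20 from 46552311 to 46554440, minus strand, in 4 exon blocks. Both Jun genes have 1 exon block on the minus strand: junba (ENSDARG00000074378) on chromosome 1 from 51732979 to 51734535 and junbb (ENSDARG00000104773) on chromosome 3 from 7654655 to 7656059. The gene of the stress-responsive factor Atf3, atf3 (ENSDARG00000007823), spans 37794633 to 37800737 on the plus strand of chromosome 20 in 4 blocks. The gene egr1 (ENSDARG00000037421) spans 21332522 to 21336385 on the minus strand of chromosome 14 in 2 blocks. The Ier2 paralogues, which encode short nuclear proteins, each have 1 block: ier2a (ENSDARG00000099195) on chromosome 3 from 33761549 to 33762726, plus strand, and ier2b (ENSDARG00000086881) on chromosome 11 from 31038409 to 31039533, minus strand. The sources used here do not say how reads shared between paralogues were counted.

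Divided by exon length, the members differed widely in level. In wild type at Sphere, fosab stood at 39.3 ± 19.2 CPM per kb of exon (SD, n = 3) and ier2a at 21.9 ± 3.66 (SD, n = 3). The genes ier2b and atf3 followed at 8.73 ± 2.57 and 7.49 ± 1.101 CPM per kb (SD, n = 3). These 4 genes carry the readable signal of the set. The Jun genes were far lower, junba at 0.784 ± 0.307 and junbb at 0.350 ± 0.288 CPM per kb (SD, n = 3), and egr1 was last at 0.0192 ± 0.0333 (SD, n = 3). In the mutant at Sphere the means of fosab and ier2a, 33.8 ± 30.3 and 36.4 ± 7.87 CPM per kb (SD, n = 3), lay within each other's spread.

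**Figure D1:**
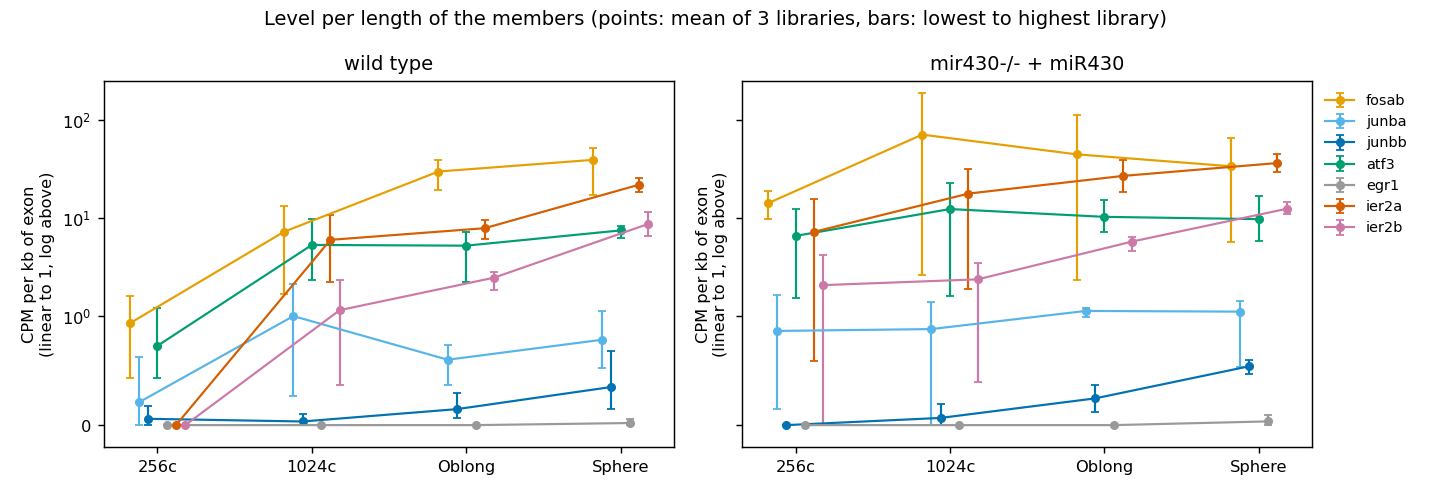
Level of the 7 genes per kb of exon at each stage, in wild type (left) and mutant (right); points are means of 3 libraries and bars run from the lowest to the highest library. The vertical axis is linear up to 1 and logarithmic above. fosab, ier2a, ier2b and atf3 climb from the bottom of the scale in wild type, while junba, junbb and egr1 stay near or under 1 CPM per kb, and the fosab bars of the mutant are the longest from 1024c on.

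The Fos gene was nearly silent in wild type at 256c. Its levels in replicates 1, 2 and 3 were 0.733, 1.31 and 2.72 CPM at 256c, 2.89, 11.8 and 22.3 at 1024c, 52.8, 32.6 and 66.9 at Oblong, and 88.3, 29.2 and 82.5 at Sphere. The ranges of successive stages did not overlap up to Oblong, and those of Oblong and Sphere did. Successive wild type stages lay apart in that direction for 17.8% of all genes from 256c to 1024c and for 7.55% from 1024c to Oblong. In the mutant, fosab was already at 23.2, 16.6 and 32.3 CPM at 256c. From 1024c on the mutant libraries scattered, with 37.0, 321 and 4.46 CPM at 1024c, 34.1, 3.94 and 190 at Oblong, and 50.5, 9.67 and 112 at Sphere. The highest library exceeded the lowest 71.9-fold, 48.1-fold and 11.6-fold at these 3 stages. The library that stood highest was replicate 2 at 1024c and replicate 3 at Oblong and Sphere. Mutant replicate 3 at Oblong and Sphere also had the highest sums of the blood genes, 2.60 and 5.43 CPM. Mutant replicate 2 at 1024c had 0.197 CPM. A link between blood genes and fosab was not tested.

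The Jun genes gave few counts. Summed over the 3 libraries of a group, junba had 4 counts in wild type at 256c, all in replicate 1, and between 25 and 105 counts in each of the other 7 groups. Its group means lay between 0.326 and 1.76 CPM, and every group's range overlapped that of its neighbour in order of level. The paralogue junbb had 24 counts in wild type and 48 in the mutant at Sphere, at most 13 in any other group, and 0 in the mutant at 256c. At Sphere its level was 0.492 ± 0.405 CPM in wild type and 0.760 ± 0.0921 in the mutant (SD, n = 3), with overlapping ranges. The gene egr1 had 0 counts in all 18 libraries from 256c to Oblong, where 3 counts over wild type at 256c would correspond to 0.308 CPM. At Sphere it had 4 counts in wild type, all in 1 library, and 7 in the mutant in 2 libraries, and it did not pass the filter on low counts. Differences in egr1 were therefore not detectable at this depth.

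In wild type at 256c, atf3 was at 1.47, 3.27 and 1.17 CPM in replicates 1, 2 and 3. It stood at 6.33, 10.1 and 26.7 CPM at 1024c, at 6.05, 16.9 and 19.5 at Oblong, and at 21.2, 16.9 and 22.6 at Sphere. Every later wild type library lay above all 3 at 256c, and the 3 later stages overlapped. The mutant had 4.18, 16.0 and 33.2 CPM at 256c, 4.34, 62.0 and 33.9 at 1024c, 22.6, 19.5 and 41.4 at Oblong, and 17.7, 15.9 and 45.5 at Sphere. These 4 mutant ranges overlapped one another, and replicate 1 was the lowest mutant library at 256c and at 1024c.

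Both Ier2 genes had 0 counts in each of the 3 wild type libraries at 256c. There ier2a then rose to 2.62, 5.90 and 12.7 CPM in replicates 1, 2 and 3 at 1024c, and had 7.14, 9.43 and 11.3 at Oblong and 21.9, 30.4 and 25.2 at Sphere. In the mutant it was at 0.696, 6.59 and 18.3 CPM at 256c, 2.25, 37.6 and 23.0 at 1024c, 21.6, 27.6 and 46.0 at Oblong, and 53.0, 40.9 and 34.9 at Sphere. Mutant replicate 1 was the lowest of its group at 256c and 1024c, as for atf3. The paralogue ier2b, of nearly the same exon length, ran lower in every group with counts, also per kb. Its wild type levels were 0.413, 0.843 and 2.63 CPM at 1024c, 2.06, 3.12 and 3.16 at Oblong, and 7.32, 12.99 and 9.16 at Sphere. In the mutant it had 0, 2.28 and 4.71 CPM at 256c, 0.449, 3.94 and 3.62 at 1024c, 5.14, 7.20 and 7.12 at Oblong, and 12.4, 16.3 and 13.3 at Sphere. In order of mean level, wild type at Oblong, mutant at Oblong and wild type at Sphere followed one another for ier2b with no overlap between neighbours. For ier2a the lowest group, wild type at 256c, was the only one separated from its neighbour in that order. The order was read from the same means. Mutant libraries lay above wild type ones at Oblong without overlap for 13.8% of all genes. Wild type libraries at 1024c lay above those at 256c for 17.8%. No such share was computed for mutant at Oblong against wild type at Sphere. Scaled to nuclear counts alone, ier2b overlapped between mutant at Oblong and wild type at Sphere, at 49.15 to 65.5 and 51.3 to 100 CPM.

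**Figure D2:**
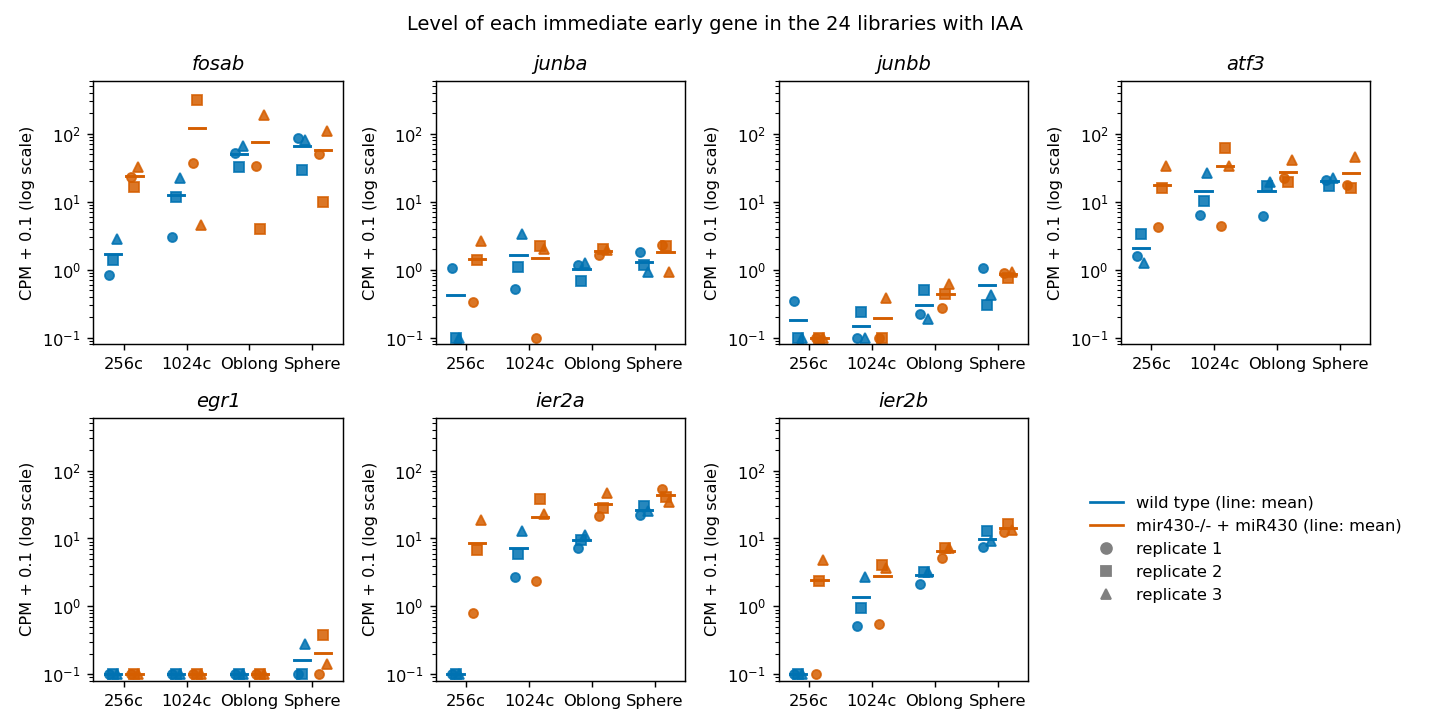
Level of each gene in the 24 libraries with IAA, as CPM + 0.1 on a logarithmic axis, by stage; blue marks wild type and orange the mutant, marker shapes give the replicate number and horizontal lines the group mean. At 256c all 3 mutant libraries lie above all 3 wild type libraries for fosab, atf3 and ier2a, and the mutant fosab points spread widely at the later stages.

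Changes were tested with edgeR's quasi-likelihood test over the 24 libraries, with Benjamini-Hochberg adjustment over the 14732 genes that passed the filter, and called means an adjusted p under 0.05. 6 of the 7 members were tested. In wild type from 256c to 1024c, ier2a was the member called, at least 20.4-fold higher with 3 counts over the 256c group as the bound (adjusted p = 0.0102). That is 1 of 6 members, and 3.34% of all tested genes were called higher in the same step. The ranges of ier2a, ier2b, fosab and atf3 did not overlap between these stages, as for 17.8% of all genes in that direction. For ier2b the bound was at least 3.59-fold (adjusted p = 0.0860), and the fitted log2 fold changes were 2.99 for fosab (SE 1.27, adjusted p = 0.235) and 2.86 for atf3 (SE 0.889, adjusted p = 0.0775).

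Same-numbered wild type libraries of 256c and 1024c deviated together, and with the replicate number as a block and only these 6 libraries fitted, 3 members were called higher: ier2a (adjusted p = 3.272e-06), fosab (log2 fold change 3.09, adjusted p = 4.529e-05) and atf3 (2.82, adjusted p = 0.000241). That block fit was added after seeing the data, because these libraries deviated together, a choice that favours small p-values. The labels name no pairing. How many of all genes that block fit called is not reported here, and the share above is from the main fit. The call of ier2a was lost without wild type 256c replicate 1 (adjusted p = 0.111) or 2 (0.0874), and without 1024c replicate 3 (0.0698). Over the alternatives its adjusted p ran from 1.76e-06 to 0.111. In the same step 5 of 7 enveloping layer genes were called higher in the main fit, against 3.34% of all genes. Among them were the keratin gene krt8, with 125 counts against 1 (adjusted p = 0.0225), and grhl1, a grainyhead factor gene, with 158 against 1 (0.0101). None of the 7 was called without wild type 256c replicate 1 or 2 or without 1024c replicate 3, and 2 were without 256c replicate 3.

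No member was called in the later wild type steps, and no gene of the table was either (0%), while 5.5% of genes from 1024c to Oblong and 14% from Oblong to Sphere had an unadjusted p under 0.05. From 1024c to Oblong, fosab had the largest fitted log2 fold change of the 6, 2.04 (SE 1.14, adjusted p = 0.931). From Oblong to Sphere the Ier2 genes did not overlap, as for 9.32% of genes, with log2 fold changes of 1.47 (SE 0.834, adjusted p = 0.364) for ier2a and 1.82 (SE 0.767, adjusted p = 0.351) for ier2b. Same-numbered libraries of this step deviated together, though the labels name no pairing. With the replicate block and only these 6 libraries, in a fit added after seeing the data, both Ier2 genes were called higher. The log2 fold changes were 1.26 for ier2a (adjusted p = 0.0325) and 1.58 for ier2b (adjusted p = 0.0336). The number of all genes called in this block fit is not reported here. Total-count scaling also called both Ier2 genes from Oblong to Sphere, where it called 2180 genes in all. It moved the median log2 fold change of all genes in this step from 0.40 to 1.55. DESeq2 called no member in either step, and 4 and 238 genes in all, in stage order.

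At 256c, the earliest stage, 3 of the 6 tested members were called higher in the mutant and none lower, against 6.61% of all genes called higher and 9.48% called in either direction. The difference of ier2a, 156 counts against 0, was at least 28.5-fold (adjusted p = 0.00263). All 3 mutant libraries lay above wild type for ier2a, replicate 1 with only 3 counts. For ier2b, 44 counts against 0, the difference was at least 8.05-fold (adjusted p = 0.0146), and mutant replicate 1 had 0 counts like wild type. Mutant libraries held atf3 at 17.8 ± 14.6 CPM and wild type ones at 1.97 ± 1.14 (SD, n = 3), without overlap, and its log2 fold change was 3.17 (SE 0.896, adjusted p = 0.0247). For 13.8% of all genes the mutant libraries lay above wild type without overlap.

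The Fos gene just missed the threshold at 256c. Its mean was 24.03 ± 7.87 CPM in mutant libraries and 1.59 ± 1.02 in wild type ones (SD, n = 3), without overlap, and its log2 fold change was 3.95 (SE 1.3, adjusted p = 0.0535). Its adjusted p ran from 0.000296 to 0.197 over the alternatives, and DESeq2 (0.0117), total-count scaling (0.00353) and the fit of the 256c libraries alone (0.00542) called it. Low counts left junba at 1.81 (SE 1.14, adjusted p = 0.369), with overlapping groups, and junbb had 0 counts in the mutant and 1 in wild type. The median log2 fold change was 3.56 over the 6 members and 0.25 over all tested genes. Scaled to nuclear counts alone, which leaves the mitochondrial reads out, fosab stood at 299 ± 80.6 CPM in the mutant and 27.4 ± 14.2 in wild type at 256c, and atf3 at 193 ± 112 and 36.6 ± 22.8 (SD, n = 3).

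The calls at 256c rest on few libraries. Without wild type replicate 1 or 2, or without mutant replicate 3, only ier2a of the 6 was called (adjusted p = 0.0219, 0.0178 and 0.0132), and ier2b then had 0.0743, 0.0571 and 0.0700 and atf3 0.113, 0.0518 and 0.148. Without wild type replicate 3, atf3 also lost its call (adjusted p = 0.105). With only the 256c libraries fitted, atf3 and fosab were called, and the Ier2 genes did not pass the filter.

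Other genes and markers moved with the members at this stage. Summed over 7 enveloping layer genes, the level at 256c was 6.21 to 24.1 CPM in wild type and 34.4 to 542 in the mutant. In the mutant 6 of the 7 were called higher, against 6.61% of all genes. Most of each sum was the grainyhead factor gene grhl3, at 267.6 ± 236.5 CPM in the mutant and 12.25 ± 9.92 in wild type (SD, n = 3). The sums averaged 297 and 12.5 CPM. Mutant libraries held 288 counts of krt8 and 156 of grhl1 where wild type ones held 1 of each (adjusted p = 0.00286 and 0.00357), and krt4, krt5, krt18a.1 and cldne had 0 counts in wild type. In the mutant, krt5, krt18a.1 and cldne were at means of 1.27, 2.09 and 2.38 CPM. The gene krt4 was not called, and its level in the mutant is not reported here. The count of 6 fell to 2 without wild type replicate 1 or 2, and to 3 without wild type replicate 3 or mutant replicate 3. Summed over 4 yolk syncytial layer genes, the level was 22.5 to 84.3 CPM in wild type and 119 to 803 in the mutant. Among them, 2 were called higher, against 6.61% of all genes. In wild type apoba was at 0, and slc26a1 was at 0 in both genotypes. Neither apoba nor slc26a1 was called, and the level of apoba in the mutant is not reported here. The homeobox factor gene mxtx2 was one of the 2 called, with 384 ± 361 CPM in the mutant and 47.9 ± 32.4 in wild type (SD, n = 3; adjusted p = 0.0336). This gene made up nearly all of the sums, which averaged 388 CPM in the mutant and 48.0 in wild type. Of the 4, none was called without wild type replicate 2 or mutant replicate 3, and 1 was without wild type replicate 1 or 3. Mutant replicate 1, the lowest mutant library for ier2a, ier2b and atf3, was also lowest for the enveloping layer sum and had the lowest nuclear share of its group, 2.46%. The 7 heat shock genes summed to 19.8 to 37.9 CPM in wild type and 41.2 to 58.5 in the mutant at 256c, with none called. The part of these markers, of stage and of depth in the differences of the members was not tested.

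**Figure D3:**
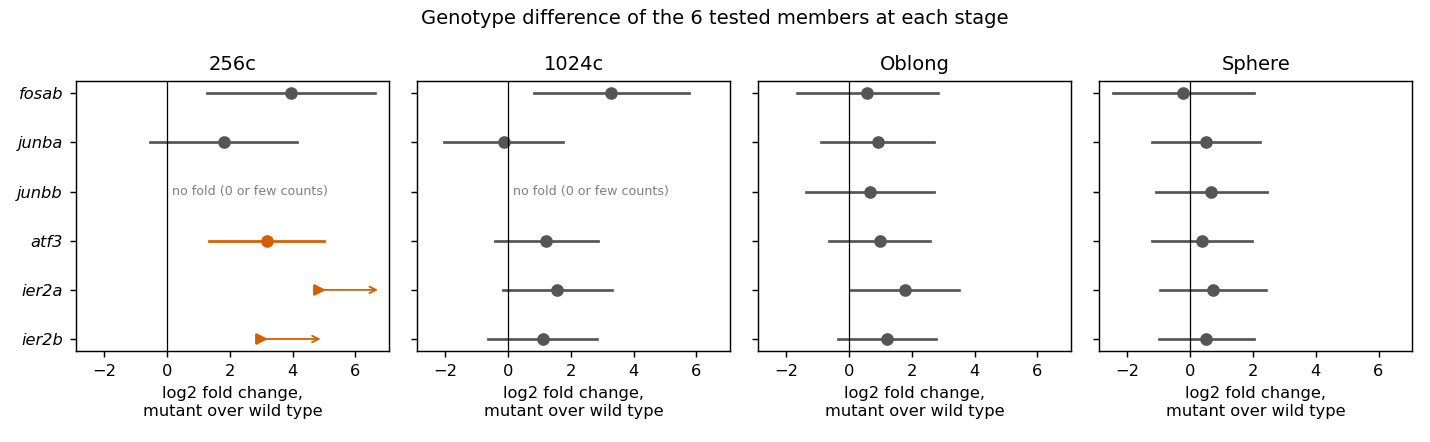
Log2 fold change of the 6 tested genes, mutant over wild type, at each stage; points and lines give the fitted value and its 95% interval, and triangles with arrows give lower bounds where wild type had 0 counts. Orange marks genes called and grey genes not called. Calls occur at 256c for atf3, ier2a and ier2b, and the intervals of later stages include 0 except for fosab at 1024c and ier2a at Oblong.

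No member was called between genotypes at 1024c, where 1.83% of all genes were called higher. The Fos gene differed most, with means of 121 ± 174 CPM in mutant and 12.3 ± 9.73 in wild type libraries (SD, n = 3) and a fitted value of 3.29 on the log2 scale (SE 1.198, adjusted p = 0.134), and mutant replicate 3 lay inside the wild type range. DESeq2 called it (adjusted p = 0.0452), and without mutant replicate 2 the value was 0.76 (adjusted p = 0.884). The log2 fold changes of ier2a, ier2b and atf3 were 1.57 (SE 0.847, adjusted p = 0.355), 1.101 (SE 0.839, adjusted p = 0.573) and 1.22 (SE 0.795, adjusted p = 0.476), each with overlapping groups. Mutant replicate 1 lay under all 3 wild type libraries for ier2a and atf3. Enveloping layer genes summed to 171 to 918 CPM in wild type and 86.0 to 1070 in the mutant here, with replicate 1 again the lowest mutant library. Most of the wild type sum was grhl3, at a mean of 438 CPM where the sum averaged 462. Of the 7, krt8 was called higher in the mutant, at 188 ± 282 CPM against 6.58 ± 2.03 (SD, n = 3; adjusted p = 0.00868).

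At Oblong, 0.774% of all genes were called higher in the mutant, and no member was. The groups did not overlap for ier2a, ier2b and junba, as for 13.8% of genes in that direction. Their log2 fold changes were 1.77 (SE 0.841, adjusted p = 0.352), 1.22 (SE 0.760, adjusted p = 0.510) and 0.91 (SE 0.875, adjusted p = 0.687). Scaled to nuclear counts alone, junba overlapped between genotypes, at 14.75 to 17.2 CPM in the mutant and 5.67 to 19.75 in wild type. The fitted value of fosab, 0.58 (SE 1.096, adjusted p = 0.839), turned to -0.83 with the replicate block and only the Oblong libraries, and to -1.40 without mutant replicate 3. At Sphere, 0.394% of genes were called higher and no member was. There ier2a, at 42.9 ± 9.26 against 25.8 ± 4.31 CPM (SD, n = 3), did not overlap between genotypes, as for 7.64% of genes. Scaled to nuclear counts alone it did overlap, at 233 to 339 CPM in the mutant and 141 to 299 in wild type. The log2 fold change of ier2a was 0.73, with a 95% interval from -0.95 to 2.42. For fosab the value at Sphere was -0.22, with an interval from -2.46 to 2.03. A level 4-fold higher in the mutant lies inside both intervals.

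Within the mutant, no member was called in any of the 3 steps and no gene of the table was (0%). The share of genes with an unadjusted p under 0.05 was 5.89%, 9.52% and 16.4% in stage order. From 256c to 1024c the log2 fold changes were 1.29 for ier2a, 0.16 for ier2b, 2.33 for fosab and 0.91 for atf3 (SE 0.838, 0.799, 1.15 and 0.788). None of these passed the test, and the value of fosab was -0.21 without mutant 1024c replicate 2. From 1024c to Oblong ier2b did not overlap between stages, as for 12.9% of genes in that direction, with a fitted value of 1.29 on the log2 scale (SE 0.776, adjusted p = 0.569). From Oblong to Sphere ier2b and junbb did not overlap, as for 13.5% of genes, and their fitted values were 1.11 (SE 0.743, adjusted p = 0.471) and 1.104 (SE 0.889, adjusted p = 0.561), the latter from 13 counts at Oblong and 48 at Sphere. Scaled to nuclear counts alone, junbb overlapped, at 1.64 to 4.59 CPM at Oblong and 3.75 to 7.315 at Sphere. Same-numbered libraries of that step deviated together, though the labels name no pairing. With the replicate block and the 6 libraries of the step alone, in a fit added after seeing the data, ier2b was called (0.95, adjusted p = 0.0148). How many of all genes were called in that fit is not reported here. Fitted changes of fosab and atf3 in the last 2 mutant steps were between -0.67 and -0.08 and turned positive with total-count scaling, between 0.72 and 1.23. That scaling moved the median log2 fold change of all genes from 0.18 to 1.12 in the step from 1024c to Oblong and from 0.08 to 1.40 in the step from Oblong to Sphere.

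Whether the step from 256c to 1024c differed between genotypes was tested as an interaction. The rise of ier2a and ier2b from 0 counts in wild type met a mutant group that already had counts, and the interaction had an unadjusted p of 0.00213 for ier2a and 0.0125 for ier2b. After adjustment these were 0.462 and 0.542, no gene of the table was called (0%), and 6.79% of genes had an unadjusted p under 0.05. The interaction of ier2a was called with DESeq2 (adjusted p = 0.0262), with total-count scaling (0.0233) and without the filter on low counts (0.0102). For this interaction DESeq2 called 189 genes in all and total-count scaling 232. No member was called in the interactions of the 2 later steps, where 0.00679% and 0% of genes were.

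Within groups, the members moved in different company. Over the 24 libraries, deviations of log2(CPM + 1) from the group means correlated at r = 0.948 between ier2a and ier2b (Spearman 0.840, and r = 0.904 without the 2 libraries farthest out). The value was 0.871 between ier2a and atf3, 0.829 between ier2a and junba and 0.825 between ier2b and atf3. The deviations of fosab correlated at 0.251 with ier2a, 0.0666 with ier2b, 0.0897 with junba and 0.399 with atf3. Libraries share their depth and scaling factor across genes, and these values are descriptions of 24 libraries.

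The 3 genes most like fosab over the 24 libraries were foxo3b, a forkhead factor gene (r = 0.980), mdm2, whose product marks p53 for degradation (0.976), and phlda3, which encodes a pleckstrin homology domain protein (0.972). Their deviations from group means correlated with those of fosab at 0.966, 0.973 and 0.975. These 3 genes were picked for their correlation with fosab in the same libraries, so a close likeness was fixed by the choice. That holds also for the genes most like the other members. In the mutant, mdm2 had 90.9, 403 and 13.8 CPM in replicates 1, 2 and 3 at 1024c. It had 98.4, 7.29 and 529 CPM at Oblong and 227, 37.7 and 448 at Sphere. The same libraries were high and low for mdm2 as for fosab at all 3 stages. In the wild type, mdm2 ran from 2.69 to 10.1 CPM at 256c and from 92.3 to 359 at Sphere.

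The genes most like ier2a were lpin1 (r = 0.975), which encodes a phosphatidate phosphatase, rasgef1ba (0.973), a Ras exchange factor gene, and osr1 (0.970), a zinc finger factor gene. Those most like ier2b were zic2b (0.966), the yolk syncytial layer gene mxtx1 (0.965) and cdc25b (0.963), whose product activates cyclin-dependent kinases. For atf3 they were foxq1b (0.938), the kinase gene sgk1 (0.936) and adar (0.934), which encodes an adenosine deaminase of RNA. For junbb, with its few counts, they were cldn10l2 (0.898), znf703 (0.856) and AL732629.2 (0.845).

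**Figure D4:**
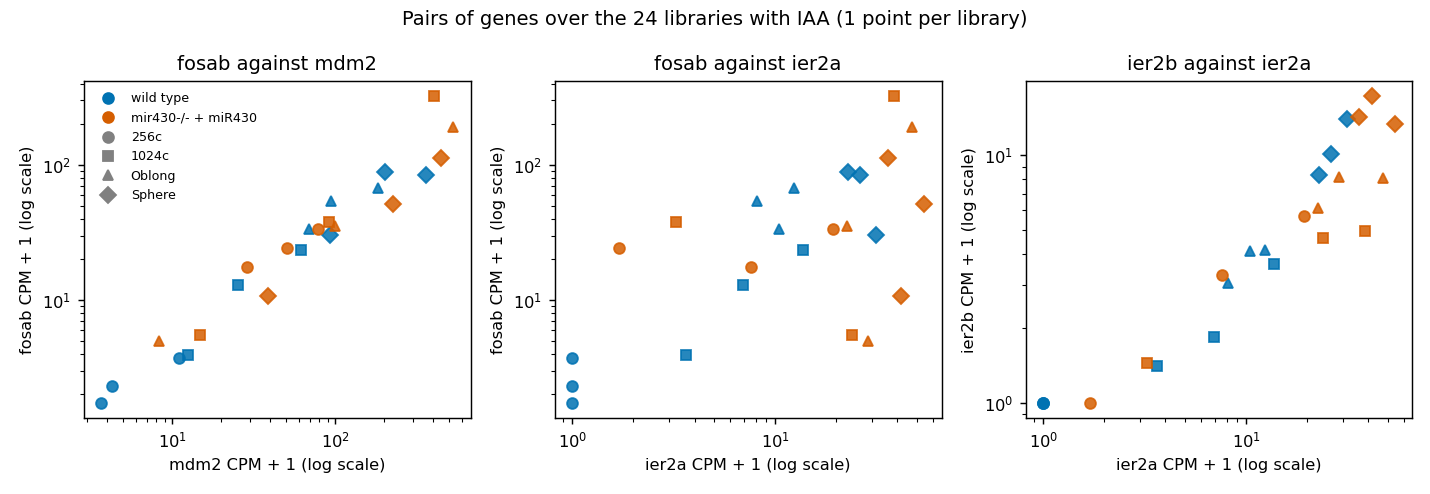
CPM + 1 of pairs of genes in the 24 libraries with IAA on logarithmic axes, 1 point per library; blue marks wild type, orange the mutant, and shapes the stage. fosab follows mdm2 closely (r = 0.976), scatters against ier2a (r = 0.640), and ier2b follows ier2a (r = 0.943). The gene mdm2 was picked for its high correlation with fosab in these libraries, while ier2a and ier2b are members chosen by symbol.

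Genes around the members in the same pathways were read from 4 lists. Of 17 tested other AP-1 and Atf genes, atf1, a Creb family factor gene, was called higher in the mutant at 256c, with 44.8 ± 19.9 CPM there and 8.67 ± 5.11 in wild type (SD, n = 3). Its log2 fold change was 2.36 (SE 0.726, adjusted p = 0.0385). That is 1 of 17, against 6.61% of all genes called higher in this comparison. This call was lost in each fit that left out 1 of the 256c libraries other than mutant replicate 1. None of them was called in the other genotype comparisons or in a step. None of the 3 tested other Egr and Nr4a genes was called in any comparison. The median log2 fold change at 256c was 1.66 over the AP-1 and Atf list and 1.68 over the Egr and Nr4a list, against 0.25 over all genes.

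Of 32 tested other early response genes, 12 were called higher in the mutant at 256c and none lower, with a median of 3.46. Over all genes, 6.61% were called higher and the median was 0.25. The zinc finger factor gene klf2a had 77.6 ± 63.8 CPM in the mutant and 1.4 ± 1.17 in wild type (SD, n = 3), and its log2 fold change was 5.84 (SE 1.104, adjusted p = 0.00188). The leucine zipper factor gene cebpb had 139 counts against 0 (adjusted p = 0.0123). Leaving out 1 of the 6 libraries left between 7 and 15 called higher. In wild type from 256c to 1024c, 12 of the 32 were called higher, among them dusp6, the gene of a phosphatase that inactivates ERK, at 179 ± 153 against 2.83 ± 1.94 CPM (SD, n = 3; adjusted p = 0.00658), and klf2a (adjusted p = 0.00625). That count fell to 0 without wild type 256c replicate 1 or 2, to 2 without 1024c replicate 3 and to 6 without 256c replicate 3. Of all genes, 3.34% were called higher in that step. No gene of this list was called at 1024c, Oblong or Sphere between genotypes.

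Of 23 tested upstream kinases and factors, 2 were called higher and 1 lower in the mutant at 256c, with a median of -0.05. These counts are close to the shares over all genes, 6.61% called higher and 9.48% called in either direction. The ribosomal S6 kinase gene rps6ka3a, which acts below ERK, had 15.4 ± 7.08 CPM in the mutant and 2.18 ± 0.543 in wild type (SD, n = 3), with a fitted change of 2.82 on the log2 scale (SE 0.75, adjusted p = 0.0178). The Jun kinase gene mapk9 was lower, at 0.335 ± 0.314 CPM where wild type had 5.03 ± 0.118 (SD, n = 3), with a fitted change of -4.01 on the log2 scale (SE 1.07, adjusted p = 0.018). The remaining call was creb1a, a gene of the cAMP response factor Creb, higher with 18 counts against 0 (adjusted p = 0.0400). It was also the 1 gene of the 23 called higher in wild type from 256c to 1024c, against 3.34% of all genes. No gene of this list was called in that step without 1024c replicate 3 or without any 1 of the wild type 256c replicates. Each of the 3 calls at 256c was lost in at least 3 of the 6 fits that left out 1 library of that stage.

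The authors' deposited table, made per stage, gives mutant over wild type log2 fold changes at 256c of 5.26 for ier2a (adjusted p = 5.326e-05), 3.68 for ier2b (0.00321) and 2.69 for atf3 (0.00503), all marked up-regulated there. For fosab the authors' deposited table gives 2.82 at 256c (adjusted p = 0.0121) and 1.85 at 1024c (0.0485), and marks it as not changed at both stages. At Oblong and Sphere the authors' deposited table marks none of the 7 as changed, and its value for fosab at Sphere is -0.00198. For ier2a at Oblong it gives 0.740 with an SE of 0.724 but an unadjusted p of 0.025. That p-value does not follow from the ratio of the 2. The authors' fold changes may be pulled toward 0, and their size cannot be set directly against the fitted values above.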

How the data were processed

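Raw counts of reads per gene were deposited by the authors as whole numbers, per the file headers. The headings call them filtered, and the sources used here do not say what was removed, so the counts may hold all reads or the converted ones alone. The submitters' processing notes name Trimmomatic, HISAT, SAMtools, Picard, featureCounts, DESeq2 and the build GRCz11. Per the labels' protocols the kit was stranded and poly(A) RNA was not selected. Log2 fold changes with p-values for each stage stand in the authors' deposited table of comparisons. A signal column of mean levels in that deposited table was not used.

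The 24 libraries with IAA were fitted together in edgeR 4.0.16 (R 4.3.3, limma 3.58.1), with 8 group means, TMM scaling, filterByExpr (minimum count 10, minimum total 15) and the quasi-likelihood test over 14732 genes. The SE is the fold change divided by the root of F. CPM values divide by the total times the TMM factor, and CPM per kb divides further by the exonic length. Folds against a group at 0 are bounds with 3 counts over the group. Floors and the bounds made from them cover counting error only, while the 95% intervals of fold changes come from the quasi-likelihood SE and include the spread among libraries. Chi-square values per degree of freedom for the 24 replicate pairs ran from 11.02 to 272, and each library was counted on its own.

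Replicate numbers come from the titles. They were taken to pair 2 groups where every same-numbered pair's deviations correlated over 0.1. This held for the genotypes at Oblong (0.114 to 0.246), for wild type from 256c to 1024c (0.232 to 0.352) and from Oblong to Sphere (0.542 to 0.834), and for the mutant from Oblong to Sphere (0.536 to 0.699). The block fits with only those libraries were added after seeing the data. Those comparisons were picked for this correlation in the same libraries, so the choice favours a smaller spread and smaller p-values with the block.

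Named genes were all 7 members, the 3 tested genes with the highest correlation of log2(CPM + 1) with each, leaving out mir430 genes and most clone names (those with a colon or a set prefix, which AL732629.2 lacks), and, from each list and comparison, up to 2 called genes each way with the largest fold and at least 5 CPM. The genes most like junba are not reported here. The genes creb1a, grhl3, krt4, krt5, krt18a.1, cldne, apoba and slc26a1 fall outside this rule, and their values were known when they were named. The members and lists were chosen with earlier results of these data known. Alternatives were DESeq2 1.42.0, total-count scaling, leaving out mitochondrial genes, no filter, a replicate block, fits of only the groups compared, and leaving out each library. On simulated data for the genotype comparison at 256c (14105 genes), the procedure recovered 88% of genes raised by 4 on the log2 scale and 16% of those raised by 2, and 62% and 4% of those lowered by as much. Changes were planted only in genes above a minimum mean count at 256c, and both groups started from the same rate. These shares therefore do not cover ier2b, junba and junbb, which lie under that minimum, or a rise from a group without counts.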

Additional observations from a re-analysis of the deposited data

Results flagged for a closer look

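The wild type libraries without IAA, 1 per stage and used by the authors to find SNPs, are outside every comparison, and some members had more counts there than the 3 that a count of 0 allows. At Sphere, with 637576 nuclear counts, fosab had 347 counts, atf3 96, ier2a 52 and ier2b 15. In CPM of nuclear counts these were 544, 151, 81.6 and 23.5, against 176 to 1207 for fosab, 102 to 289 for atf3, 141 to 299 for ier2a and at least 51.3 for ier2b in the 3 wild type Sphere libraries with IAA. So fosab and atf3 lay inside the range of the IAA libraries and both Ier2 genes lay below it. At Oblong, with 131331 nuclear counts, fosab had 34 counts, or 259 CPM of nuclear counts, against 322 to 957 with IAA. At 256c, with 104079 nuclear counts, atf3 had 4 counts, or 38.4 CPM of nuclear counts, against 18.3 to 62.2 with IAA. At 1024c fosab, atf3 and ier2a had 3, 1 and 0 counts, where 3 counts correspond to 20.4 CPM of nuclear counts. With IAA they were at 46.0 to 164, 100.8 to 160.5 and 41.6 to 82.1 there. At Oblong atf3 and ier2a each had 2 counts, or 15.2 CPM of nuclear counts, against 109.7 to 181.2 and 93.15 to 129.5 with IAA. These 1024c and Oblong levels lay below the ranges with IAA. The Ier2 genes had 0 counts at 256c without IAA too, which allows up to 28.8 CPM of nuclear counts. With 1 library per stage, differences from the IAA libraries have no replicate check. The libraries also differed in make-up. Without IAA, nuclear genes took 637576 of 786123 counts at Sphere and 131331 of 143490 at Oblong. In wild type with IAA they took 12.9 to 62.6% and 6.04 to 13.2%. The part of this in the levels per nuclear count was not tested.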

How the results depend on the processing

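At 256c between genotypes, 3 members were called, and 2 to 4 were over the alternatives that kept all libraries of the 256c groups, while leaving out 1 library gave 1 to 3. Over all genes, 1397 were called there in the main fit, 1999 with DESeq2 and 2086 with total-count scaling. At 1024c, 0 were called in the main fit, and 1, fosab, was with DESeq2, without the filter and with the replicate block (log2 fold change 3.88, adjusted p = 0.0485). The main fit called 500 genes in all at 1024c and DESeq2 called 916. In wild type from 256c to 1024c, the 1 call became 3 with DESeq2, without mitochondrial genes, with the replicate block, with only the groups compared, and with both of the latter, and 4 with total-count scaling or no filter, and it ranged from 0 to 1 over the leave-one-out fits. The number of all genes called in this step rose too. It was 493 in the main fit, 1120 with DESeq2, 908 without mitochondrial genes and 1586 with total-count scaling. From Oblong to Sphere, total-count scaling and the replicate block with only the groups compared gave 2 calls in wild type, and the latter gave 1 in the mutant. Total-count scaling called 2180 genes in all in that wild type step. DESeq2, total-count scaling and no filter gave 1 for the genotype difference of the first step. The counts of the other comparisons were 0 under every alternative run. At 256c the replicate block made the count 4, with fosab added (adjusted p = 0.0315). Outside the comparisons named in this paragraph, the block changed no count of members. For fits with a block, without the filter or with only the groups compared, the number of all genes called is not reported here.

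The following fitted directions turned, none of them called on either side. With total-count scaling, junba (0.39) and atf3 (1.04) did in wild type from 1024c to Oblong, ier2b (-0.18) in the mutant from 256c to 1024c, fosab (0.72) and atf3 (1.14) from 1024c to Oblong, and fosab (0.84), junba (1.28) and atf3 (1.23) from Oblong to Sphere. With DESeq2 atf3 (0.18) did in the mutant from Oblong to Sphere. In the mutant from 256c to 1024c, junba turned without mitochondrial genes (0.056) and with only the groups compared (0.095). With the replicate block, atf3 (0.036) turned in wild type from 1024c to Oblong and junba (0.038) in the mutant from Oblong to Sphere, and with the block and only the groups compared, fosab did between genotypes at Oblong (-0.83) and in the mutant from Oblong to Sphere (0.15). The cause was not tested. Total-count scaling moved the median log2 fold change of all genes at 256c between genotypes from 0.25 to 0.96.

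Leaving out 1 library in turn also turned some uncalled directions. For fosab the leave-one-out values ran from -1.40 to 1.14 between genotypes at Oblong and from -1.12 to 0.35 at Sphere, and in the mutant from -0.21 to 2.88, from -2.62 to 1.88 and from -1.30 to 1.58 over the 3 steps. For atf3 they ran from -0.25 to 0.73 between genotypes at Sphere, from -0.35 to 0.80 in wild type from 1024c to Oblong, and in the mutant from -0.86 to 0.55 and from -0.71 to 0.32 over the last 2 steps. For junba they ran from -0.61 to 0.95 between genotypes at 1024c, from -1.14 to 0.42 in wild type from 1024c to Oblong, and in the mutant from -0.47 to 0.74, from -0.30 to 0.84 and from -0.27 to 0.32. For junbb they ran from -2.45 to 3.29 between genotypes at 1024c and from -3.25 to 2.45 in wild type from 256c to 1024c. For ier2b in the mutant from 256c to 1024c they ran from -0.39 to 1.08, and for ier2a from 1024c to Oblong from -0.0080 to 1.33.

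Depth limits most what can be said at 256c in wild type, where 3 counts over the group correspond to 0.308 CPM, and for junba, junbb and egr1 at every stage.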

Other observations

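The germ plasm genes dnd1, nanos3, ddx4, dazl and tdrd7a, which mark future germ cells, summed to 9.33 to 16.3 CPM in wild type and 5.08 to 10.9 in the mutant at 256c. At Sphere they summed to 0.273 to 4.46 CPM in wild type and 0.376 to 3.48 in the mutant. None of the 3 tested genes of this list was called in any comparison.

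The 7 heat shock genes, which encode chaperones and heme oxygenase, summed to 15 to 33.2 CPM in wild type and 48.1 to 68.1 in the mutant at 1024c. At Oblong the ranges were 19.2 to 105 and 58.0 to 94.5 CPM, and at Sphere 41.9 to 353 and 103 to 354. None of the 5 tested genes of this list was called in any comparison.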
